A study of Mus musculus with 6 samples.

Results

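Collagen chain genes were compared between mouse colon with chronic colitis induced by dextran sulfate sodium (DSS) and control colon. Every row whose symbol reads Col, a number, a and a number was taken, which gave 44 of the 24421 gene rows. By structure they fell into 11 fibrillar chains, 9 chains of the basement membrane and its anchoring zone, 9 FACIT chains (fibril-associated collagens with interrupted helices) and 15 others, among them the beaded-filament chains of type VI. RNA had been sequenced from 6 colon tissue samples of C57BL/6 mice labelled as 7 weeks old, 3 from mice with DSS-induced colitis of the chronic form (DSS 1, 2 and 3) and 3 from mice labelled control (control 1, 2 and 3). DSS is a sulfated polysaccharide that injures the colonic lining. The labels name no transgene, DSS dose or schedule, and do not say that samples of a group are separate animals, so the spread behind the p-values may be technical rather than between animals. The series asks whether histone acetylation takes part in this inflammation, and expression alone was analysed here. Values listed for the DSS samples or for the controls are in the order of replicates 1, 2 and 3.

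With all 6 samples no collagen chain passed the test between DSS and control colon, where 8.9% of all tested genes did. The main chains of types I, III, IV and V (Col1a1, Col1a2, Col3a1, Col4a1, Col4a2, Col5a1 and Col5a2) were above every control in DSS 1 and DSS 3, and in DSS 2 they were near or below the controls. Without DSS 2, a sample picked out after its values were seen, 7 of 19 tested chains passed as higher, against 4.3% of the genes tested in that fit. The make-up of the collagen transcripts did set all 3 DSS samples apart. Fibrillar chains together had a larger share, and type VI chains together a smaller share, than in any control. Shares of some single chains overlapped, among them Col1a1 and Col6a3. The shares were looked at with the values known and have no test. Separation within samples was common, since ratios of 2 genes kept the groups apart for 44.4% of collagen pairs and 34.1% of all tested pairs.

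Collagens are secreted proteins in which chains wind around each other as helical trimers. Fibrillar types I, III and V polymerise into the fibres that give the submucosa its strength, type IV forms the sheet under epithelium and around vessels and muscle cells, FACIT chains decorate fibrils, and type VI makes a fine mesh beside the cells. In the gut wall fibroblasts and smooth muscle cells make most of them, and an excess of type I and type III is the hallmark of intestinal fibrosis.

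The start-site sequences of 5 chains that the results turn on are printed so that the fibrillar, type IV and type VI genes can be compared at their starts. The set of RefSeq start-site windows used here (GRCm38.p6), 250 bases before to 50 after the start, covered 35 of the 44 chains. It held none for Col1a1, Col2a1, Col4a3, Col5a2, Col9a3, Col12a1, Col14a1, Col22a1 or Col26a1. Col1a2 (chr6:4505368-4505667, plus strand) and Col3a1 (chr1:45311288-45311587, plus strand) stand for the fibrillar class. Col4a1 (chr8:11312777-11313076, minus strand) and Col4a2 (chr8:11312555-11312854, plus strand) are transcribed away from each other, with annotated starts 21 bases apart, and their windows share 78 bases. Col6a1 (chr10:76725995-76726294, minus strand) stands for type VI. Capitals mark 3 promoter motifs. The letters of the first are CCAAT. Those of the second, the usual GC box, are GGGCGG. Those of the third, the usual core promoter box, are TATAAA. Either strand was searched, a match to the other strand is printed as its reverse complement, and no marked match in these windows overlaps another.
Col1a2: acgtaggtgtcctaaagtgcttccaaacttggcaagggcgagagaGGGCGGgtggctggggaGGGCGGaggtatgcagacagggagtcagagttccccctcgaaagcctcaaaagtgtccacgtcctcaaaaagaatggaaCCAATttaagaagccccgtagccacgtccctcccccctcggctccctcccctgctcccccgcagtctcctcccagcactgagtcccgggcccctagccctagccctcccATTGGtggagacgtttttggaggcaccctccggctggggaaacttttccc
Col3a1: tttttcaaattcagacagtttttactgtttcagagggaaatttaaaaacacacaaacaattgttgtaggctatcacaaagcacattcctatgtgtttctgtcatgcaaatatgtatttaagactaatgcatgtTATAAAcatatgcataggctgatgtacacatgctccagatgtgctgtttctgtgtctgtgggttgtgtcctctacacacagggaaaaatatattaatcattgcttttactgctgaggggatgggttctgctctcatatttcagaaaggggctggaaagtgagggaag
Col4a1: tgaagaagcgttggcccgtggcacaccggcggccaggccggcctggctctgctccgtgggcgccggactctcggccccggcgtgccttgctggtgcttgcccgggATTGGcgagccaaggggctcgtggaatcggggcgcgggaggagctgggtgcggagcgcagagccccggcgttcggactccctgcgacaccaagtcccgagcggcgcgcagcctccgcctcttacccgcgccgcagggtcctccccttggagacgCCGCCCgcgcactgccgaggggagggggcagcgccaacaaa
Col4a2: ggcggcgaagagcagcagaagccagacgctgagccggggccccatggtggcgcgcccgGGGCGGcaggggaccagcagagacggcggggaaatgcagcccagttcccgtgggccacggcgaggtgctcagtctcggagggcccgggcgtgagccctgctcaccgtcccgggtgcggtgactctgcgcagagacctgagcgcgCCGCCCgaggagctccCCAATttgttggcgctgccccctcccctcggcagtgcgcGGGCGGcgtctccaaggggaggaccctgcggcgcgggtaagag
Col6a1: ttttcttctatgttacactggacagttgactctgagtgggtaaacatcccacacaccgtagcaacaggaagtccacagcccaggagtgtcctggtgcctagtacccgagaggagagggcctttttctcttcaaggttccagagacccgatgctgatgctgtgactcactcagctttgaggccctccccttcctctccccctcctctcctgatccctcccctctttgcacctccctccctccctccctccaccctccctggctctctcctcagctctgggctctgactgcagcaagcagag

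The CCAAT letters occurred in the windows of Col1a2, Col4a1 and Col4a2, and TATAAA in that of Col3a1. The TATAAA match of Col3a1 lay at position -117 from the start site, and the CCAAT matches of Col1a2 at -109 and 1. The GGGCGG match just inside the 2 type IV genes is a single site that both windows hold, at chr8:11312812-11312817. Col6a1 had none of the 3 motifs. Over the 35 chains with a window, 13 held CCAAT (37.1%), 22 held GGGCGG (62.9%) and 5 held TATAAA (14.3%). Among 27025 genes with a window the shares were 41.1%, 38.2% and 15.7%. The median GC content was 59.8% in the collagen windows and 52.7% in all windows. A match is a description of the letters and not evidence that a factor binds.

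The deposited FPKM scale fragments to transcript length and to the library's mapped fragments, so that levels can be set side by side between genes of different length. They summed to between 609544 and 678076 per sample, and read totals are unknown. A gene was tested if 3 or more samples reached 1 FPKM, which 12348 genes did, with limma on log2(FPKM + 1), and 8.9% of them were called at a Benjamini-Hochberg adjusted p under 0.05 (783 higher and 316 lower in DSS). With other scalings, which move the median gene by between -0.15 and -0.14 on the log2 scale, the split was 502 to 536 (upper quartile), 515 to 509 (median of ratios) and 535 to 497 (quantile). The 7 colon epithelium markers were all tested and summed to 4992, 4426 and 4755 FPKM in DSS 1, 2 and 3, against 8837, 6491 and 6563 FPKM in the controls. Krt8 was the largest part, at 2751, 2405 and 2720 FPKM with DSS and 5592, 4208 and 4088 FPKM in the controls. The log2 fold change was negative for 5 of the 7 and positive for 2, Cdx1 (0.06) and Cdx2 (1.48), neither of them called. Markers of cartilage and bone summed to at most 7.32 FPKM in any sample, with Acan, Ibsp and Matn3 listed at 0 in all of them. Gapdh, a housekeeping enzyme, was listed at 0, 21.4 and 36.1 FPKM in DSS 1, 2 and 3. In control 1, 2 and 3 it was listed at 2.0, 0.117 and 0.145 FPKM. A listed 0 or a low value, in either group, can therefore be a failed estimate.

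Of the 44 chains 19 passed the filter and were tested, 18 of them with 1 FPKM or more in all 6 samples. No collagen chain was called in either direction with all 6 samples (limma, lowest adjusted p = 0.0576), against the 8.9% called among all tested genes. At an unadjusted limma p under 0.05 there were 3 of 19 (15.8%), Col14a1, Col1a2 and Col5a2, against 28.3% of all tested genes. The groups did not overlap for 4 of the 19. Col1a2 had every DSS sample above every control, as did 25.6% of tested genes, and Col6a1, Col6a2 and Col14a1 had every DSS sample below, as did 9.51%. In bulk tissue fewer cells of a type and less RNA per cell cannot be told apart. The plot of levels shows the 19 chains sample by sample.

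**Figure D1:**
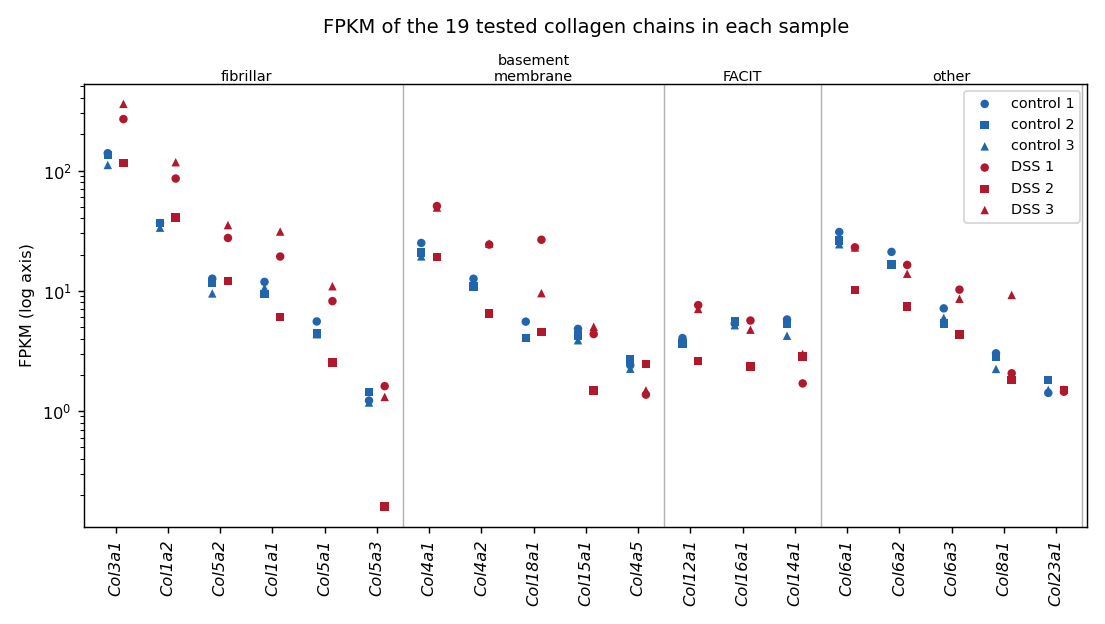
FPKM (log axis) of the 19 tested collagen chains, grouped by class and ordered by mean level, with each point 1 sample, blue for control and red for DSS. For Col3a1, Col5a2, Col1a1, Col5a1, Col4a1 and Col4a2 DSS 1 and DSS 3 sit above the controls and DSS 2 among or below them, and for Col6a1, Col6a2 and Col14a1 all DSS points sit below the controls.

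Among fibrillar chains Col3a1, the single chain of type III, was the most abundant collagen in every sample. It stood at 268, 115 and 359 FPKM in the 3 DSS samples, against 139, 135 and 111 FPKM in the controls (log2 fold change 0.80 ± 0.39 SE, adjusted p = 0.231). DSS 1 and DSS 3 were above every control and DSS 2 lay among them. Col3a1 lies on chromosome 1, 45311538 to 45349706 (GRCm38), tail to tail with Col5a2 at 45374321 to 45503282.

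Type I is built from the products of Col1a1 and Col1a2. Col1a2 (chromosome 6, 4504814 to 4541544) measured 85.8, 40.7 and 117 FPKM in the DSS samples, and the controls measured 36.5, 36.6 and 33.5 FPKM. Its 3 controls were close together and all DSS samples lay above them, DSS 2 by the least (log2 fold change 1.04 ± 0.35 SE, adjusted p = 0.111). Col1a1 (chromosome 11, 94936224 to 94953042) reached 19.3, 6.07 and 31.1 FPKM with DSS, where the controls reached 11.8, 9.39 and 10.6 FPKM. Here DSS 2 was below every control, and the group means did not differ beyond the spread (log2 fold change 0.52 ± 0.51 SE, adjusted p = 0.543).

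Type V chains co-assemble with type I and set the width of its fibrils. Col5a2 stood at 27.5, 12.1 and 35.1 FPKM in the 3 DSS samples, against 12.6, 11.7 and 9.5 FPKM in the controls (log2 fold change 0.96 ± 0.36 SE, adjusted p = 0.136), with DSS 2 inside the control range. Col5a1 measured 8.2, 2.52 and 10.9 FPKM in the DSS samples, and the controls measured 5.55, 4.4 and 4.35 FPKM, with DSS 2 the lowest of all 6 (log2 fold change 0.34 ± 0.43 SE, adjusted p = 0.644). Col5a3, a minor type V chain, reached 1.61, 0.16 and 1.31 FPKM with DSS, where the controls reached 1.22, 1.43 and 1.18 FPKM, again with DSS 2 far below the rest (log2 fold change -0.25 ± 0.31 SE, adjusted p = 0.633). Over the 6 tested fibrillar chains the median log2 fold change was 0.66, against 0.13 over all tested genes. DSS 2 was the lowest DSS sample for all 6 of them.

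Of the basement membrane chains Col4a1 and Col4a2, which make the common type IV network and share the start region printed above, were the most abundant. Col4a1 (chromosome 8, 11198423 to 11312826) stood at 50.6, 19.1 and 49.2 FPKM in the 3 DSS samples, against 25, 20.7 and 19.3 FPKM in the controls (log2 fold change 0.73 ± 0.36 SE, adjusted p = 0.237). Col4a2 (chromosome 8, 11312805 to 11449287) measured 24.2, 6.48 and 24.7 FPKM in the DSS samples, and the controls measured 12.6, 10.8 and 11.1 FPKM (log2 fold change 0.44 ± 0.46 SE, adjusted p = 0.577). For both genes DSS 1 and DSS 3 were nearly equal and above every control, and DSS 2 was below every control.

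Col18a1, whose C-terminal fragment is endostatin, had the largest SE of the log2 fold change in the class and stood at 26.6, 4.56 and 9.55 FPKM in the 3 DSS samples, against 5.53, 4.03 and 4.06 FPKM in the controls. DSS 1 was far above every other sample, and DSS 2 lay inside the control range (log2 fold change 1.09 ± 0.53 SE, adjusted p = 0.23). Col15a1, a chain of similar build, which links basement membranes to fibrils, reached 4.36, 1.47 and 5.02 FPKM with DSS, where the controls reached 4.82, 4.26 and 3.88 FPKM, with DSS 2 far below the rest (log2 fold change -0.30 ± 0.33 SE, adjusted p = 0.597). Col4a5, a chain of the alternative type IV networks, stood at 1.37, 2.45 and 1.48 FPKM in the 3 DSS samples, against 2.4, 2.69 and 2.25 FPKM in the controls (log2 fold change -0.33 ± 0.20 SE, adjusted p = 0.309). In this gene DSS 2 was the highest DSS sample and lay among the controls. Its X-linked neighbour Col4a6, which starts 1309 bases away in the other direction, stayed under the filter at 0.172, 0.341 and 0.177 FPKM with DSS, where the controls stood at 0.583, 0.841 and 0.711 FPKM, every DSS sample below every control.

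None of the 3 tested FACIT chains was called. Col14a1, which encodes undulin and binds the fibril surface, had the lowest p of any collagen chain. It measured 1.69, 2.84 and 2.98 FPKM in the DSS samples, and the controls measured 5.77, 5.31 and 4.23 FPKM, lower in 3 of 3 DSS samples (log2 fold change -0.81 ± 0.21 SE, adjusted p = 0.0576). It passed as lower under upper-quartile (limma adjusted p = 0.0426, where 4.33% of all tested genes passed as lower), median-of-ratios (0.0458, 4.12%) and quantile scaling (0.0435, 4.02%), with adjusted p from 0.0426 to 0.166 over its alternatives. In Col14a1 (chromosome 15, 55307750 to 55520803) DSS 1 was the lowest, and DSS 2 and DSS 3 were close together. Col12a1, the closest relative of Col14a1, reached 7.59, 2.59 and 7.06 FPKM with DSS, where the controls reached 4.04, 3.64 and 3.9 FPKM (log2 fold change 0.37 ± 0.33 SE, adjusted p = 0.50), with DSS 1 and DSS 3 above and DSS 2 below every control. Col16a1 stood at 5.65, 2.34 and 4.74 FPKM in the 3 DSS samples, against 5.33, 5.57 and 5.17 FPKM in the controls (log2 fold change -0.34 ± 0.27 SE, adjusted p = 0.445), where DSS 2 was the lowest.

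Type VI, the main collagen outside these classes, assembles from 3 different chains. Col6a1 measured 23, 10.2 and 22.9 FPKM in the DSS samples, and the controls measured 30.8, 26.1 and 24.4 FPKM (log2 fold change -0.59 ± 0.30 SE, adjusted p = 0.249). Col6a2 reached 16.4, 7.42 and 13.8 FPKM with DSS, where the controls reached 21, 16.5 and 16.4 FPKM (log2 fold change -0.54 ± 0.28 SE, adjusted p = 0.246). For both, every DSS sample was below every control, by little in DSS 1 and by the most in DSS 2, and neither passed the test. Col6a3, the long chain of the trimer, stood at 10.2, 4.31 and 8.58 FPKM in the 3 DSS samples, against 7.13, 5.35 and 5.96 FPKM in the controls, with DSS 1 and DSS 3 above the controls (log2 fold change 0.22 ± 0.29 SE, adjusted p = 0.654). Col6a1 and Col6a2 lie in tandem on chromosome 10 (76708792 to 76726168 and 76595762 to 76623630), while Col6a3 is on chromosome 1.

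Col8a1, a short network-forming chain of vessel walls, measured 2.06, 1.82 and 9.23 FPKM in the DSS samples, and the controls measured 3.02, 2.82 and 2.24 FPKM, high in DSS 3 alone (log2 fold change 0.28 ± 0.48 SE, adjusted p = 0.749). The transmembrane collagen gene Col23a1 reached 1.45, 1.49 and 1.52 FPKM with DSS, where the controls reached 1.41, 1.8 and 1.5 FPKM, with the smallest SE of the 19 tested chains (log2 fold change -0.05 ± 0.16 SE, adjusted p = 0.877).

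The other 25 chains did not reach 1 FPKM in 3 samples and were not tested. Of these 22 were under 1 FPKM in every sample, and Col6a6 was listed at 0 throughout. Of the 24 listed above 0 in some sample, 1 had every DSS sample above every control (Col9a3) and 4 had every DSS sample below (Col4a6, Col6a5, Col8a2 and Col9a2). Among all 6710 such rows under the filter the shares were 9.42% above and 5.98% below. The type IX chain gene Col9a2 stood at 0.0537, 0.0252 and 0.0942 FPKM in the 3 DSS samples, against 0.315, 0.54 and 0.371 FPKM in the controls. It was the 1 chain called when no filter was applied (limma log2 fold change -0.41, adjusted p = 0.0399), in a fit of 19058 genes that called 2.82% higher and 1.32% lower. Its trimer partner Col9a3 lay on the other side, at 0.119, 0.111 and 0.329 FPKM with DSS, where the controls stood at 0.0233, 0.0508 and 0 FPKM, and its exons overlap those of Tcfl5 on the other strand. Col8a2, the partner of Col8a1, measured 0.331, 0.202 and 0.577 FPKM in the DSS samples, and the controls measured 0.724, 1.11 and 1.08 FPKM. Col6a5 reached 0.227, 0.253 and 0 FPKM with DSS, where the controls reached 0.382, 0.299 and 0.293 FPKM, and is uncertain because it has a near-identical stretch in Col6a6. Cartilage chains were close to 0, with Col2a1 listed above 0 in control 2 alone. Col17a1 and Col7a1, which anchor squamous epithelium, reached at most 0.097 and 0.212 FPKM.

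The DSS samples differed from one another more than the controls did. The SD of log2(FPKM + 1) was larger in DSS for 18 of the 19 tested chains, against 63% of all tested genes, with a median ratio of DSS to control SD of 5.42 for the chains and 1.36 for all tested genes. DSS 2 was the lowest DSS sample for 16 of the 19 (84.2%), against 49.9% of tested genes. DSS 1 and DSS 3 both exceeded every control while DSS 2 was below every control for 6 of the 19 (31.6%), against 4.52% of tested genes. This pattern was counted after the collagen values were seen, and the 6 share the same low sample. For Col4a1 the margin was small, with 19.1 FPKM in DSS 2 and 19.3 FPKM in control 3. Against the control mean, the median of the 19 chains lay at 0.66 (DSS 1), -0.44 (DSS 2) and 0.73 (DSS 3) on the log2 scale. Over all tested genes it was 0.16, 0.04 and 0.20. Summed over the 44 chains, collagen FPKM came to 590.1, 248 and 722 in DSS 1, 2 and 3 and to 341, 314 and 280.2 in control 1, 2 and 3.

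**Figure D2:**
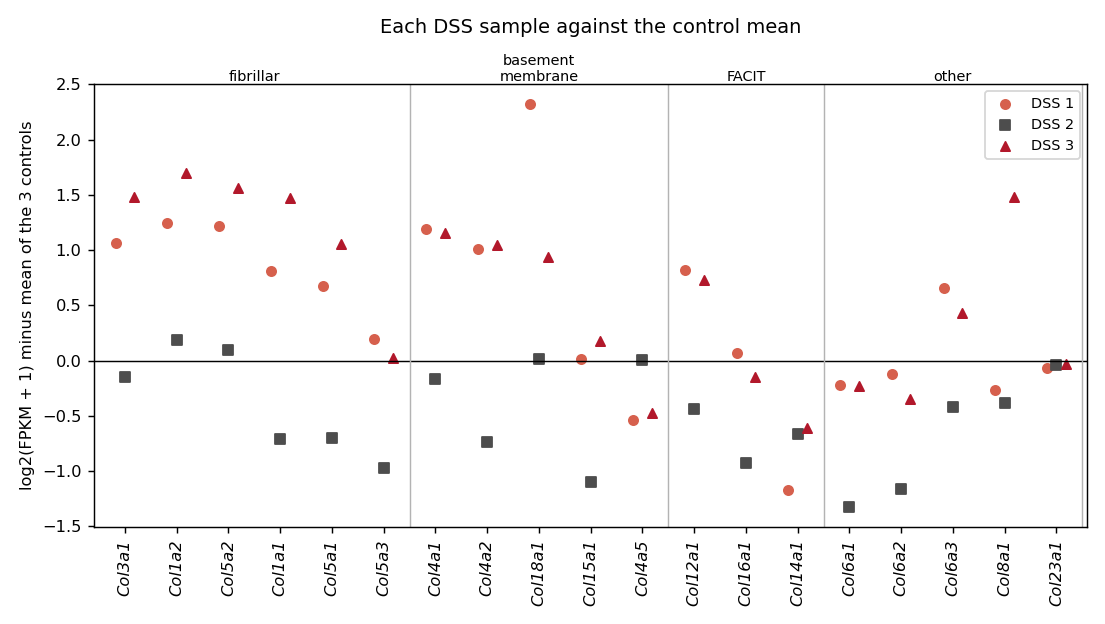
Difference of each DSS sample from the mean of the 3 controls on the log2(FPKM + 1) scale for the 19 tested chains, with circles for DSS 1, squares for DSS 2, triangles for DSS 3 and a line at 0 for the control mean. DSS 1 and DSS 3 both lie above 0 for every fibrillar chain, Col4a1 and Col4a2, and DSS 2 is the lowest DSS point for 16 of the 19.

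Without DSS 2 the fit called 7 of 19 chains higher (36.8%) and none lower, against 4.3% higher and 1.91% lower among the 12057 genes tested in that fit. The 7 were Col1a1 (log2 fold change 1.14 ± 0.23 SE, adjusted p = 0.0408), Col1a2 (1.47 ± 0.18 SE, adjusted p = 0.00951), Col3a1 (1.27 ± 0.19 SE, adjusted p = 0.0166), Col5a2 (1.39 ± 0.19 SE, adjusted p = 0.0136), Col4a1 (1.18 ± 0.17 SE, adjusted p = 0.0144), Col4a2 (1.03 ± 0.15 SE, adjusted p = 0.0169) and Col12a1 (0.78 ± 0.16 SE, adjusted p = 0.0442). That fit rests on 2 DSS samples, and the sample left out was chosen after the values were seen. Leaving out DSS 1 called 0 chains, although 8.1% of all tested genes passed as higher and 4.86% as lower. Leaving out DSS 3 also called 0 chains (background 1.59% higher and 1.22% lower), and so did leaving out any control.

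**Figure D3:**
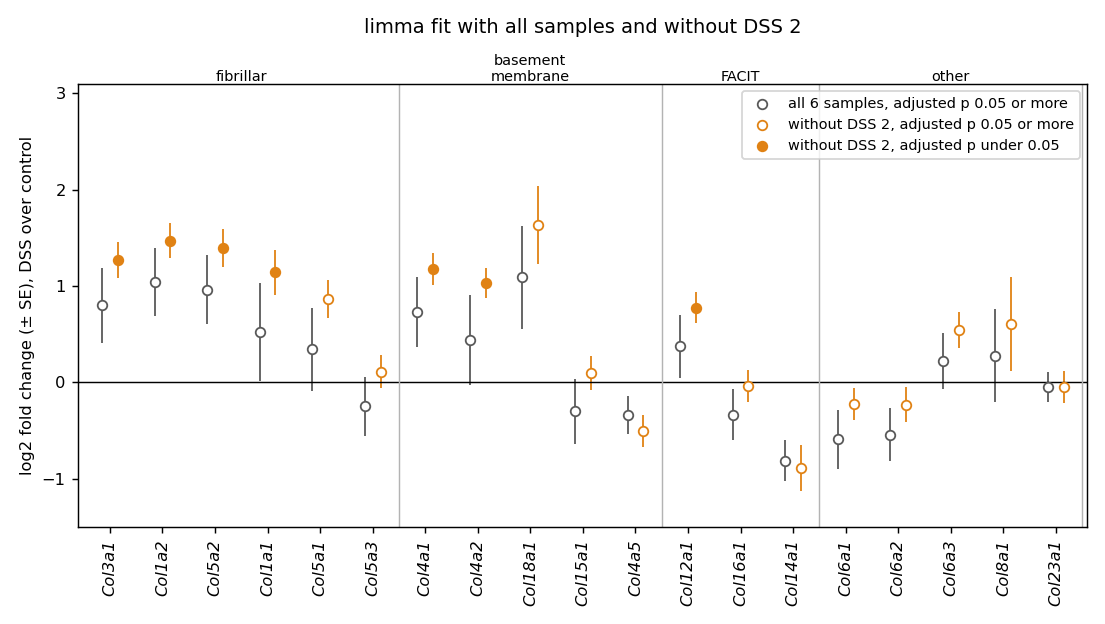
limma log2 fold change of DSS over control with its SE for the 19 tested chains, grey with all 6 samples and orange without DSS 2, filled where the adjusted p was under 0.05. Every grey point is open, and the 7 filled orange points are Col3a1, Col1a2, Col5a2, Col1a1, Col4a1, Col4a2 and Col12a1.

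Within a sample, the make-up of the collagen transcripts separated the groups even where the amount did not. These shares and ratios do not depend on a scaling factor applied to a whole sample. Quantile scaling, which sets values by rank, can change them. Shares of 1 sum move against one another by construction. The shares and ratios were looked at with the values known and have no test. Fibrillar chains made up 69.6, 71.6 and 77% in DSS 1, 2 and 3 and 60.9, 63.4 and 61% in control 1, 2 and 3 of summed collagen FPKM. The 3 main type VI chains made up 8.4, 8.83 and 6.28% in DSS 1, 2 and 3 and 17.3, 15.3 and 16.7% in control 1, 2 and 3, and FACIT chains 2.66, 3.33 and 2.17% in DSS 1, 2 and 3 and 4.7, 4.95 and 5.03% in control 1, 2 and 3. In each of these sums every DSS sample, DSS 2 included, lay on the same side of all controls. Within type VI this held for Col6a1 and Col6a2, while the share of Col6a3 overlapped. Col6a3 held 1.73, 1.74 and 1.19% in DSS 1, 2 and 3, against 2.09, 1.7 and 2.13% in the controls. Among tested FACIT chains Col14a1 and Col16a1 had a smaller share in every DSS sample, while the share of Col12a1 overlapped. The share of type IV chains, 12.9, 11.5 and 10.5% in DSS 1, 2 and 3 and 11.9, 11.2 and 11.9% in control 1, 2 and 3, overlapped. By single chain, Col3a1 held 45.4, 46.5 and 49.7% in DSS 1, 2 and 3 and 40.9, 42.9 and 39.7% in control 1, 2 and 3, and Col1a2 held 14.5, 16.4 and 16.2% in DSS 1, 2 and 3 and 10.7, 11.7 and 11.9% in control 1, 2 and 3. The share of Col5a2 was also higher in every DSS sample, at 4.66, 4.87 and 4.87% in DSS 1, 2 and 3 and 3.7, 3.73 and 3.39% in control 1, 2 and 3. Not every fibrillar chain had a larger share. Col1a1 held 3.26, 2.44 and 4.3% in DSS 1, 2 and 3 and 3.47, 2.99 and 3.77% in control 1, 2 and 3, and its groups overlapped, as did those of Col5a1. The share of Col5a3 was lower in every DSS sample, at 0.273, 0.0644 and 0.181% in DSS 1, 2 and 3 and 0.358, 0.457 and 0.42% in control 1, 2 and 3.

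**Figure D4:**
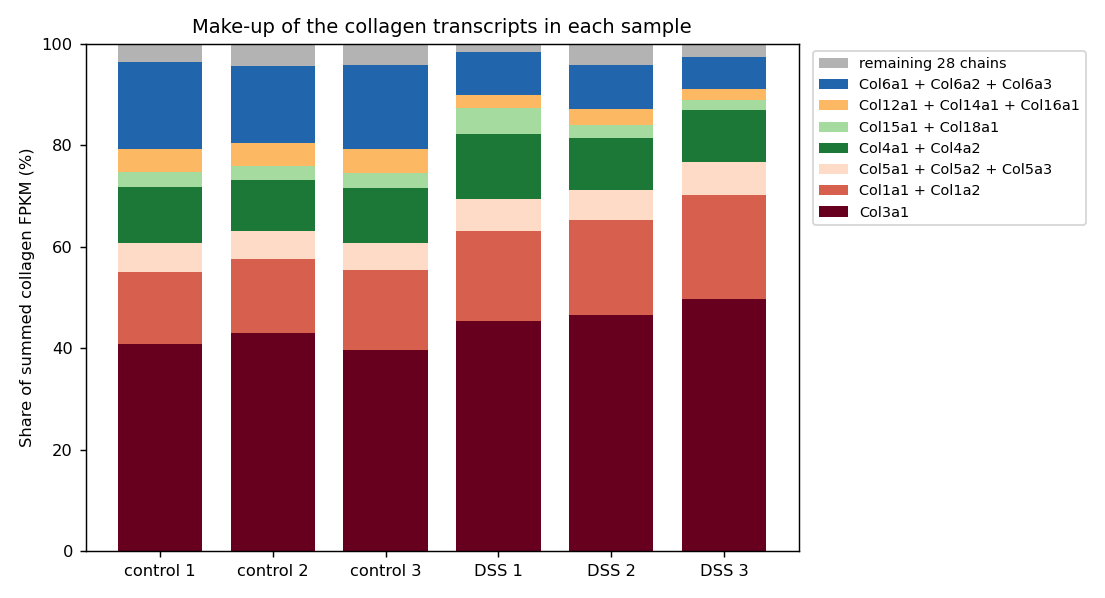
Share (%) of the summed FPKM of 44 collagen chains taken by each group of chains, 1 bar per sample. The blue type VI part is narrower in all 3 DSS bars than in all 3 control bars, and the red type I and type III parts together are wider.

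Ratios of chains that share a trimer were steadier than the levels for type VI Col6a1 and Col6a2. Col6a1 over Col6a2 was 1.4, 1.37 and 1.65 in DSS 1, 2 and 3 and 1.46, 1.59 and 1.48 in control 1, 2 and 3, overlapping between groups while the levels behind it ranged more than 2-fold within DSS. Col6a1 over Col6a3 was 2.25, 2.36 and 2.67 in DSS 1, 2 and 3 and 4.32, 4.89 and 4.09 in control 1, 2 and 3, lower in every DSS sample, unlike the pair of short chains. Col4a1 over Col4a2 was 2.09, 2.95 and 1.99 in DSS 1, 2 and 3 and 1.98, 1.91 and 1.74 in control 1, 2 and 3, and Col1a2 over Col1a1 was 4.45, 6.7 and 3.77 in DSS 1, 2 and 3 and 3.08, 3.9 and 3.17 in control 1, 2 and 3. In both DSS 2 stood highest, the groups overlapped for Col1a2 over Col1a1, and for Col4a1 over Col4a2 DSS 3 exceeded control 1 by little. Col5a2 over Col5a1 was 3.35, 4.79 and 3.22 in DSS 1, 2 and 3 and 2.27, 2.66 and 2.18 in control 1, 2 and 3, higher in every DSS sample. Between types, Col3a1 over Col1a2 was 3.12, 2.84 and 3.06 in DSS 1, 2 and 3 and 3.82, 3.67 and 3.32 in control 1, 2 and 3, lower in every DSS sample. Col3a1 over Col1a1, the other chain of type I, was 13.9, 19 and 11.5 in DSS 1, 2 and 3 and 11.8, 14.3 and 10.5 in control 1, 2 and 3, overlapping and with the higher mean in DSS. The pairings across classes, chosen after the values were seen, were farthest apart. These were Col4a1 over Col6a1, at 2.2, 1.88 and 2.15 in DSS 1, 2 and 3 and 0.811, 0.793 and 0.792 in control 1, 2 and 3, and Col1a2 over Col6a1, at 3.73, 3.99 and 5.12 in DSS 1, 2 and 3 and 1.19, 1.4 and 1.37 in control 1, 2 and 3. Over the 171 pairs of tested chains 76 (44.4%) had ratios that did not overlap between the groups, against 34.1% of all pairs of tested genes above 0 in every sample. Separation of a ratio was therefore common in these data.

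**Figure D5:**
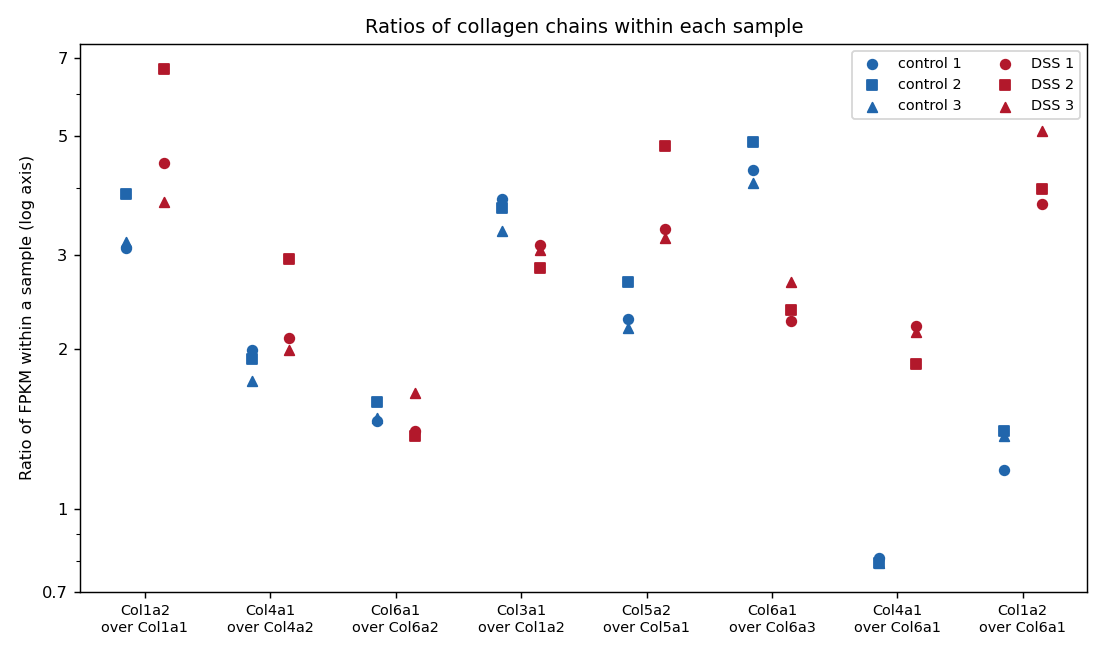
Ratio of FPKM (log axis) of named pairs of collagen chains within each sample, blue for control and red for DSS. The groups overlap for Col1a2 over Col1a1 and Col6a1 over Col6a2, and are farthest apart for Col4a1 over Col6a1 and Col1a2 over Col6a1.

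Proteins that fold, cut, cross-link, bind and degrade collagens were followed in 6 lists of 80 genes in all, of which 65 were tested. In these 8 passed as higher and 2 as lower, where 6.34% passed as higher and 2.56% as lower among all tested genes. The 8 include Mmp8 and Mmp9, which passed the filter only through the DSS samples where they are high. The count of 8 is therefore no measure of the lists. None of 16 tested genes of folding and modification was called (limma, 3 at an unadjusted p under 0.05), and the prolyl isomerase gene Ppib, the most abundant, stood at 519.8, 449 and 537 FPKM in the 3 DSS samples, against 406, 423 and 414 FPKM in the controls (log2 fold change 0.27 ± 0.13 SE, adjusted p = 0.223). Serpinh1, the collagen chaperone HSP47, measured 69.1, 37.5 and 75.7 FPKM in the DSS samples, and the controls measured 41.8, 75.9 and 75 FPKM (log2 fold change -0.09 ± 0.33 SE, adjusted p = 0.886).

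Of 8 tested genes of propeptide cleavage and cross-linking Lox, the lysyl oxidase that cross-links fibrils, rose. It reached 21.5, 13.8 and 37.1 FPKM with DSS, where the controls reached 1.35, 2.24 and 1.61 FPKM, with DSS 2 well above the controls (log2 fold change 3.11 ± 0.34 SE, adjusted p = 0.00262). Pcolce, an enhancer of propeptide removal and the most abundant of the list by its mean over all 6 samples, although under Lox in the DSS mean, stood at 22.5, 7.91 and 19.8 FPKM in the 3 DSS samples, against 21.9, 24.8 and 22 FPKM in the controls (log2 fold change -0.55 ± 0.35 SE, adjusted p = 0.346).

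Of 13 tested proteoglycans and organisers Tnxb and Ogn fell. Tnxb, which encodes the fibril-spacing tenascin-X and has a near-identical copy in Tnxa, measured 2.71, 2.07 and 2.71 FPKM in the DSS samples, and the controls measured 5.22, 4.92 and 4.84 FPKM (log2 fold change -0.78 ± 0.16 SE, adjusted p = 0.0306). Ogn, the small leucine-rich proteoglycan osteoglycin, reached 41.1, 45 and 32.9 FPKM with DSS, where the controls reached 60.0, 86.3 and 67.8 FPKM (log2 fold change -0.83 ± 0.19 SE, adjusted p = 0.0395). Decorin, Dcn, the most abundant of the list, stood at 505, 349 and 428 FPKM in the 3 DSS samples, against 351, 386 and 302 FPKM in the controls (log2 fold change 0.29 ± 0.18 SE, adjusted p = 0.321). None of 13 tested laminins and other basement membrane genes was called (limma, 1 at an unadjusted p under 0.05), and Lamb3, the most abundant, measured 37.3, 31.6 and 31.1 FPKM in the DSS samples, and the controls measured 58.2, 30.3 and 33.6 FPKM (log2 fold change -0.23 ± 0.25 SE, adjusted p = 0.595).

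Of 7 tested collagen receptor genes Itga2 and Mrc2 rose. Itga2, the collagen-binding integrin subunit of platelets and epithelium, reached 2.5, 3.32 and 2.55 FPKM with DSS, where the controls reached 1.34, 0.348 and 0.447 FPKM (log2 fold change 1.19 ± 0.25 SE, adjusted p = 0.0291). Mrc2, an endocytic receptor that takes up collagen fragments, stood at 3.58, 2.18 and 3.55 FPKM in the 3 DSS samples, against 1.33, 1.2 and 1.42 FPKM in the controls (log2 fold change 0.81 ± 0.20 SE, adjusted p = 0.0479). Itgb1, their most abundant listed companion, measured 108, 92 and 122 FPKM in the DSS samples, and the controls measured 92.1, 82.9 and 72.7 FPKM (log2 fold change 0.37 ± 0.16 SE, adjusted p = 0.183).

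Of 8 tested collagen-degrading proteases 5 rose. In all 5 DSS 2 was above every control, which a call made with DSS 2 in the fit favours. Of the tested proteases not called, DSS 2 was above every control for Fap and below every control for Mmp14 and Mmp15. Mmp8 and Mmp9 were under 1 FPKM in every control and passed the filter only through the DSS samples where they are high, so the count is no measure of the list. The gelatinase gene Mmp2 reached 44.5, 35.5 and 39.8 FPKM with DSS, where the controls reached 19.6, 19.4 and 20.5 FPKM (log2 fold change 0.97 ± 0.14 SE, adjusted p = 0.00881). Cathepsin K, Ctsk, a lysosomal collagenase, stood at 18, 23 and 20.7 FPKM in the 3 DSS samples, against 7.66, 9.15 and 6.71 FPKM in the controls (log2 fold change 1.29 ± 0.17 SE, adjusted p = 0.00575). The gelatinase gene Mmp9 measured 5.9, 4.35 and 6.39 FPKM in the DSS samples, and the controls measured 0.894, 0.878 and 0.60 FPKM (log2 fold change 1.86 ± 0.19 SE, adjusted p = 0.00206). The other two were the collagenase genes Mmp8 and Mmp13, with adjusted p = 0.000102 and 0.0415. Mmp8 stood at 24.4, 16.9 and 25.5 FPKM in the DSS samples and at most 0.0422 FPKM in a control. Mmp13 stood at 38.2, 7.84 and 29.7 FPKM in the DSS samples and at most 4.02 FPKM in a control. The membrane collagenase gene Mmp14 reached 17.8, 7.67 and 13.5 FPKM with DSS, where the controls reached 12.1, 12.1 and 12.5 FPKM, with DSS 2 the lowest (log2 fold change 0.01 ± 0.27 SE, adjusted p = 0.982).

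Some of these calls rested on few samples. Lox and Ctsk passed in all 16 alternatives. Mmp8 passed in the 13 and Mmp9 in the 12 in which they were tested, since neither reached the filter when a DSS sample was left out, nor Mmp9 a filter of 5 FPKM. Mmp2 did not pass without control 2 or control 3 (adjusted p up to 0.0549). Tnxb (up to 0.117) and Ogn (up to 0.133) did not pass without any 1 control, DSS 2 or DSS 3. Itga2 (up to 0.118) did not pass without control 2, control 3, DSS 2 or DSS 3, and Mmp13 (up to 0.143) and Mrc2 (up to 0.152) without any 1 control, DSS 1 or DSS 3. Without the filter on low values Ogn, Itga2, Mmp13 and Mrc2 did not pass, nor did Mrc2 with a filter of 0.1 FPKM. Itga2 did not pass under median-of-ratios or quantile scaling, and Mrc2 under upper-quartile or median-of-ratios scaling. With the replicate number as a term Tnxb, Itga2, Mmp13 and Mrc2 did not pass.

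Markers of the cells that make collagen also varied among the samples. The 10 fibroblast markers summed to 765, 557 and 750.1 FPKM in DSS 1, 2 and 3 and to 649, 704 and 571 FPKM in the controls. DSS 2 was the lowest DSS sample for 9 of the 10, against 49.9% of all tested genes. Of the 10, Cd34 and Clec3b fell. The 10 smooth muscle markers summed to 2019, 1383 and 3887 FPKM in DSS and to 4985, 5122 and 4083 FPKM in control samples. DSS 2 was the lowest DSS sample for 8 of these 10, against the same 49.9%. Against the control mean their median lay at -1.21 (DSS 1), -1.67 (DSS 2) and -0.10 (DSS 3) on the log2 scale. Unlike for the collagen chains, DSS 1 was low as well. None was called (limma, 6 of 10 at an unadjusted p under 0.05, against 28.3% of all tested genes). The log2 fold change was negative for all 10 (median -0.99, against 0.13 over all tested genes). In 4 of the 10 every DSS sample was below every control, as in 9.51% of tested genes. The 8 endothelial markers summed to 92.5, 51.1 and 93.2 FPKM in DSS and to 54.8, 59.7 and 62 FPKM in control samples, and of the 8 tested Egfl7 rose. The 5 pericyte markers summed to 75, 59.8 and 78.6 FPKM in the DSS samples, against 36.7, 34.6 and 30.3 FPKM in the controls, and of the 4 tested Abcc9 and Kcnj8 rose. None of the defining markers of these 4 cell types was listed at 0. Pdgfra, a receptor that marks fibroblasts, stood at 9.52, 9.41 and 9.5 FPKM in the 3 DSS samples, against 8.68, 8.35 and 8.0 FPKM in the controls, nearly equal in the 3 DSS samples. It was picked with its values in view, and Mfap5 of the same list stood at 10.7, 7.69 and 32.9 FPKM with DSS. Of the 10 fibroblast markers 6 had a positive and 4 a negative log2 fold change. Dcn alone gave 505, 349 and 428 FPKM of the DSS sums and 351, 386 and 302 FPKM of the control sums. Dcn and Lum of the fibroblast list are also in the list of proteoglycans. Of the other cell types, 3 of 8 tested leukocyte markers rose (Itgam, S100a8 and S100a9), and of 4 tested adipocyte markers Cidec rose and Adipoq and Retn fell. Krt8, of 7 tested colon epithelium markers, and Bglap, of 2 tested cartilage and bone markers, fell. Among all tested genes 6.34% were called higher and 2.56% lower, and Adipoq, Retn and Bglap passed the filter only through the controls. None of the tested enteric glia, squamous, mesothelium or skeletal muscle markers was called (limma, 2 at an unadjusted p under 0.05). The part of these markers in the collagen differences was not tested.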

How the data were processed

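Colon RNA of 3 DSS and 3 control samples was analysed, grouped by sample title. The authors deposited FPKM per gene, per the file headers. Per the labels' protocols the kit modules were poly(A) and non-directional, so genes that overlap on opposite strands can share reads. The submitters' processing notes name TopHat2 2.1.1 and mm10, and what computed the FPKM is not given in those notes or the labels. No whole-read steps were found (a 0.02 log2 bin held at most 1.4% of low ratios), hence read depth is not known and counting intervals are not given.

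The log2(FPKM + 1) values, not rescaled, of 12348 genes reaching 1 FPKM in 3 or more samples were compared between groups by limma 3.58.1 (R 4.3.3) with trend and robust options, two-sided, and Benjamini-Hochberg adjustment over all of them at 0.05. This scale understates the change of low genes. Tested on simulated data (5 sets of 12348 genes, 200 changed), it found 37.4% of changes of 2-fold and 87% of those of 4-fold. Of its calls 5.74% were false. The simulation gave both groups the same SD, drew genes independently and raised all 200 in DSS. For the chains the median ratio of DSS to control SD was 5.42, so these rates do not describe the test of the chains. Members, classes and lists were chosen with earlier results of these data known. Values in every sample are given for called chains, the 3 highest chains of each class, chains of types I, IV, V and VI, chains under the filter whose groups do not overlap, and the called and most abundant genes of each list. Serpinh1, Mmp14, Pdgfra and the other tested chains were added with their values in view. GENCODE vM21 (GRCm38) supplied coordinates. Its transcripts, searched with BLAST at 95% identity over 200 bases, gave copies of Col6a5, Col6a6 and Col26a1. Exons of 13 chains overlap another gene, over at most 6.07% of their length. Alternatives covered pseudocounts, filters, scalings, moderation, the replicate number as a term and each sample left out. Figures were drawn with matplotlib 3.10.9.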

Additional observations from a re-analysis of the deposited data

How the results depend on the processing

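Of the refits of the 19 tested chains 282 kept direction and side of the threshold, 10 passed it (Col14a1 in 3, and 7 chains without DSS 2) and 5 turned in sign. No scaling, pseudocount or filter turned a chain. The chains higher in DSS numbered 0 with all samples and 0 to 7 when 1 sample was left out, the 7 being without DSS 2. The chains lower in DSS numbered 0 with all samples and when 1 was left out, and 1 without the filter (Col9a2) and under upper-quartile, median-of-ratios and quantile scaling (Col14a1 each time). Signs turned when 1 sample was left out for Col5a1 (log2 fold change -0.0123 to 0.87), Col5a3 (-0.47 to 0.11), Col15a1 (-0.54 to 0.0989), Col8a1 (-0.32 to 0.61) and Col23a1 (-0.0905 to 0.0175). Pathway genes called higher fell from 8 to 5 without the filter, at a filter of 5 FPKM and with the replicate block, and ran from 3 to 9 with 1 sample left out. Those lower went from 2 to 1 at 5 FPKM and with the replicate block, and ran from 0 to 2. Over all genes the counts were 502 higher and 536 lower (upper quartile), 515 and 509 (median of ratios), 497 lower (quantile), and 191 to 972 higher and 58 to 584 lower with 1 sample left out. Fits without 1 sample have fewer samples by construction, and for the other settings the cause was not tested. Same-numbered samples deviated together at r = 0.08, 0.13 and 0.0031 (across genes), so the numbers were not taken as pairs. The replicate block gave 640 higher and 255 lower over all genes and called no chain, and DSS 1 and DSS 2, but not DSS 3, correlated best with the control of their own number. Depth is unknown, which leaves values under 1 FPKM with unknown precision.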
